A study of Caenorhabditis elegans with 16 samples.

Results

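The 10 genes described here encode named structural collagens of the *Caenorhabditis elegans* cuticle: *dpy-2*, *dpy-3*, *dpy-7*, *dpy-8*, *dpy-9*, *dpy-10*, *dpy-13*, *rol-6*, *sqt-3* and *bli-1*. They were taken by gene name, and all 10 were among the 47029 genes of the deposited count table. PolyA RNA was sequenced from whole animals of strain SS104, in which the glp-4(bn2) allele blocks germline growth in the warmth. Every group, the control included, was made sterile in this way by a shift to warmth during larval growth, and ate *Escherichia coli* OP50 on Defined Medium plates. From the last larval stage the worms stayed on lawns left untreated (control) or covered with 5 mg/mL Curcumin Phytosome (curcumin), with 0.625 mg/mL Sulforaphane (sulforaphane), or with both (combination). They were collected on day 3 of adulthood, with 4 replicates in each of the 4 groups. No carrier is named for the control, so the effects of a compound and of its carrier cannot be told apart.

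The cuticle is a collagen coat secreted by the epidermis and replaced at each larval molt. Its outer surface is ringed by shallow grooves called annular furrows. The furrow collagens DPY-2, DPY-3, DPY-7, DPY-8, DPY-9 and DPY-10 are each needed for these grooves, and worms that lack one are short and stout. Loss of furrows is also known to switch on genes for osmotic protection, detoxification and antimicrobial defence in the epidermis. Of the other genes, *dpy-13* encodes a collagen of the ridges between furrows and *rol-6* a collagen whose altered form makes worms roll. SQT-3 (collagen 1) sets body shape with its partner DPY-17, and BLI-1 belongs to the struts that join the layers of the adult cuticle. Many cuticle collagens are transcribed in bursts before each molt, and adults no longer molt.

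In these day 3 adults most of the named collagens had few counted reads. The 10 genes took 2184 of the 253371052 reads in the 16 libraries, and *sqt-3* alone took 61.4% of those 2184. The 6 furrow collagens together had 638 reads. *dpy-3* had 2 reads in all, *dpy-7*, *dpy-10* and *rol-6* had 7 each, *dpy-13* had 37 and *dpy-2* had 67. Larger totals were found for *bli-1* with 162, *dpy-8* with 168, *dpy-9* with 387 and *sqt-3* with 1340. Total reads per library ranged from 14315538 to 19964755, so 3 reads in the deepest library corresponded to 0.152 CPM (reads of a gene scaled to a fixed library size). Genes were tested only if they passed a filter on low counts, set at about 0.637 CPM in at least 4 libraries. Of the 10 genes, *sqt-3*, *bli-1*, *dpy-9* and *dpy-8* passed and 6 did not.

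**Figure D1:**
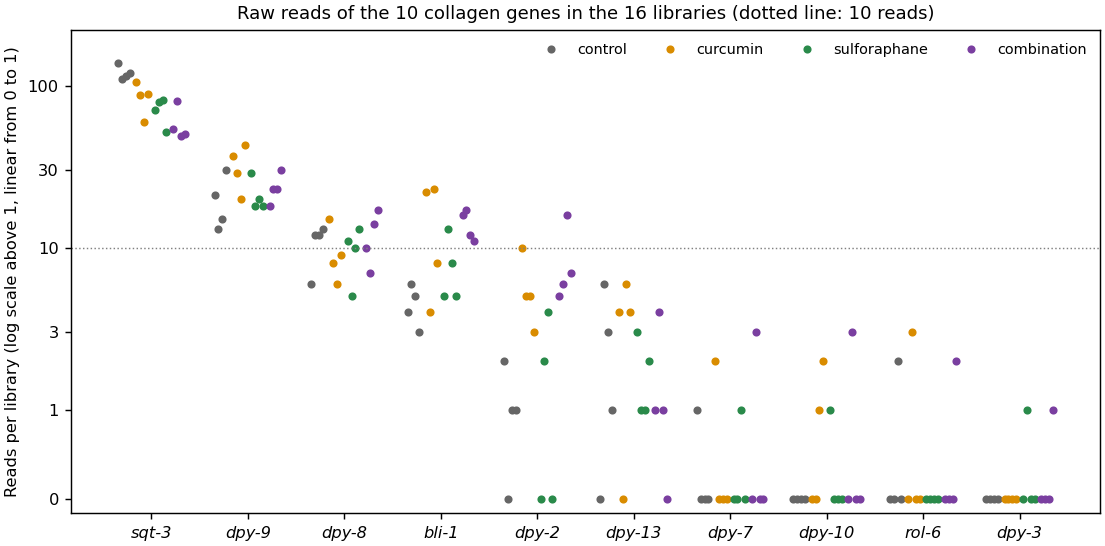
Raw reads of each of the 10 collagen genes in the 16 libraries, coloured by group (vertical axis logarithmic above 1 read and linear from 0 to 1). *sqt-3* and *dpy-9* lie above 10 reads in every library, whereas *dpy-7*, *dpy-10*, *rol-6* and *dpy-3* never exceed 3.

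Compared per length, as the authors' FPKM (fragments per kilobase of gene, scaled to library size), *sqt-3* was the highest of the 10 genes in every group. In the control its level was 5.33 ± 0.522 FPKM (SD, n = 4), followed by *dpy-9* at 1.18 ± 0.442 and *dpy-8* at 0.449 ± 0.135. The libraries of *sqt-3* and *dpy-9* did not overlap in any group, nor did those of *dpy-9* and *dpy-8*. Below *dpy-8* the control order was *dpy-13* (0.163 ± 0.177), *bli-1* (0.0948 ± 0.0296), *dpy-2* (0.047 ± 0.0387), *rol-6* (0.0281 ± 0.0562) and *dpy-7* (0.0137 ± 0.0274), and each of these overlapped its neighbour. *dpy-3* and *dpy-10* had no read in any of the 4 control libraries, which allows a level of up to 0.048 CPM over the group for *dpy-3*. For *dpy-10* the limit holds only for reads that were counted: 780 exonic bases of the gene are shared with T14B4.19 on the same strand, also at 0 reads, and how reads matching both genes were treated is not given in the sources used here. With the combination the order below *dpy-8* (0.504 ± 0.171 FPKM) was *dpy-2* (0.417 ± 0.264), *bli-1* (0.3 ± 0.0718) and *dpy-13* (0.101 ± 0.12), again with overlap between neighbours.

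Some other cuticle collagens were far more abundant at this age. The files mark 156 genes with the nematode cuticle collagen domain, all 10 named genes included. Their median control level was 0.184 FPKM, and *col-122* was the highest at 1069 FPKM. *sqt-3* ranked 26 in the family, *dpy-9* 44 and *dpy-8* 57, and the other 7 lay below the family median. The ranks were 84 for *dpy-13*, 95 for *bli-1*, 114 for *dpy-2*, 128 for *rol-6* and 139 for *dpy-7*, with *dpy-3* and *dpy-10* among the 15 genes at 0 in every control library. Only 61 of the 156 passed the filter on low counts.

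*sqt-3* was the one gene of the 10 that fell in all 3 treated groups. It lies on chromosome V from 12352745 to 12354320 on the plus strand (WBcel235) and has 2 annotated transcripts with 2 or 3 exons. The control libraries held 8.72, 7.33, 7.12 and 7.59 CPM. With curcumin the values were 5.36, 5.90, 3.80 and 5.11 CPM. With sulforaphane they were 5.02, 5.13, 5.27 and 3.27 CPM, and with the combination 3.37, 5.49, 3.32 and 3.03 CPM. Every treated library lay below every control library, while the 3 treated groups overlapped one another.

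The control mean of *sqt-3* was 7.69 ± 0.716 CPM (SD, n = 4). Curcumin lowered the mean to 5.04 ± 0.889 CPM, which is 65.6% of the control level (log2 change -0.61, SE 0.18, adjusted p = 0.0239 in edgeR). Sulforaphane lowered it to 4.67 ± 0.94 CPM, or 60.7% (log2 change -0.72, SE 0.19, adjusted p = 0.0158 in edgeR). The combination had the lowest mean, 3.80 ± 1.13 CPM or 49.4% (log2 change -1.02, SE 0.19, adjusted p = 0.000195 in edgeR). The exact two-sided permutation p was 0.0286 for each, the smallest that 4 against 4 can give, and 0.143 after adjustment over the 30 such tests of the 10 genes against control. The curcumin call was lost without control replicate 1 (edgeR adjusted p = 0.0774) or curcumin replicate 3 (0.0908), and also on FPKM with a pseudocount of 0.1. The sulforaphane call was lost without control replicate 1 (edgeR adjusted p = 0.0564) or sulforaphane replicate 4 (0.0786). A smaller epidermal share of the RNA and less *sqt-3* RNA within the epidermis cannot be told apart in whole-worm RNA.

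Across all 14328 tested genes, 14.6% were called for curcumin (6.87% higher and 7.71% lower), 6.71% for sulforaphane (4.33% and 2.37%) and 23.1% for the combination (12.1% and 11%). Among the 4 tested collagens, 2 were called for curcumin (*sqt-3* lower, *bli-1* higher), 1 for sulforaphane (*sqt-3*) and 2 for the combination (*sqt-3* and *bli-1*). The median log2 change of the 4 was 0.14, 0.02 and 0.22 in these comparisons, beside -0.01, -0.02 and -0.02 over all tested genes. *bli-1* entered this count and these medians only through treated libraries, as no control library reached the filter level, so they are a description and not support for a change. The CPM ranges of treated and control libraries did not overlap in 2 of the 10 genes for curcumin, 1 for sulforaphane and 3 for the combination. Over the 25386 genes with at least 1 read, the shares without overlap were 10.1%, 8.44% and 13.7%.

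The collagen family was set beside *sqt-3* after values were seen. Of the 61 tested family members, *sqt-3* and *bli-1* included, 21 rose and 2 fell with curcumin. With sulforaphane 12 rose and 2 fell, and with the combination 25 rose and 4 fell. Among all tested genes, the shares called higher were 6.87%, 4.33% and 12.1%, and those called lower 7.71%, 2.37% and 11%. The family medians were log2 changes of 0.33, 0.27 and 0.40. *col-153*, a cuticle collagen gene on chromosome V (10949811 to 10951821), was the only other family member that fell in all 3 comparisons, and it was singled out after its values were seen. Its control mean was 4.30 ± 0.714 CPM (SD, n = 4), against 2.87 ± 0.368 under curcumin, 2.73 ± 0.351 under sulforaphane and 2.54 ± 0.386 under both. Its edgeR adjusted p-values were 0.0366, 0.0358 and 0.00424. *dpy-17*, whose collagen is the partner of SQT-3 in the cuticle, was not called. Its mean was 4.39 ± 0.52 CPM in control worms (SD, n = 4) and 4.77 ± 0.233, 3.83 ± 1.14 and 4.09 ± 0.653 in the curcumin, sulforaphane and combination groups.

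**Figure D2:**
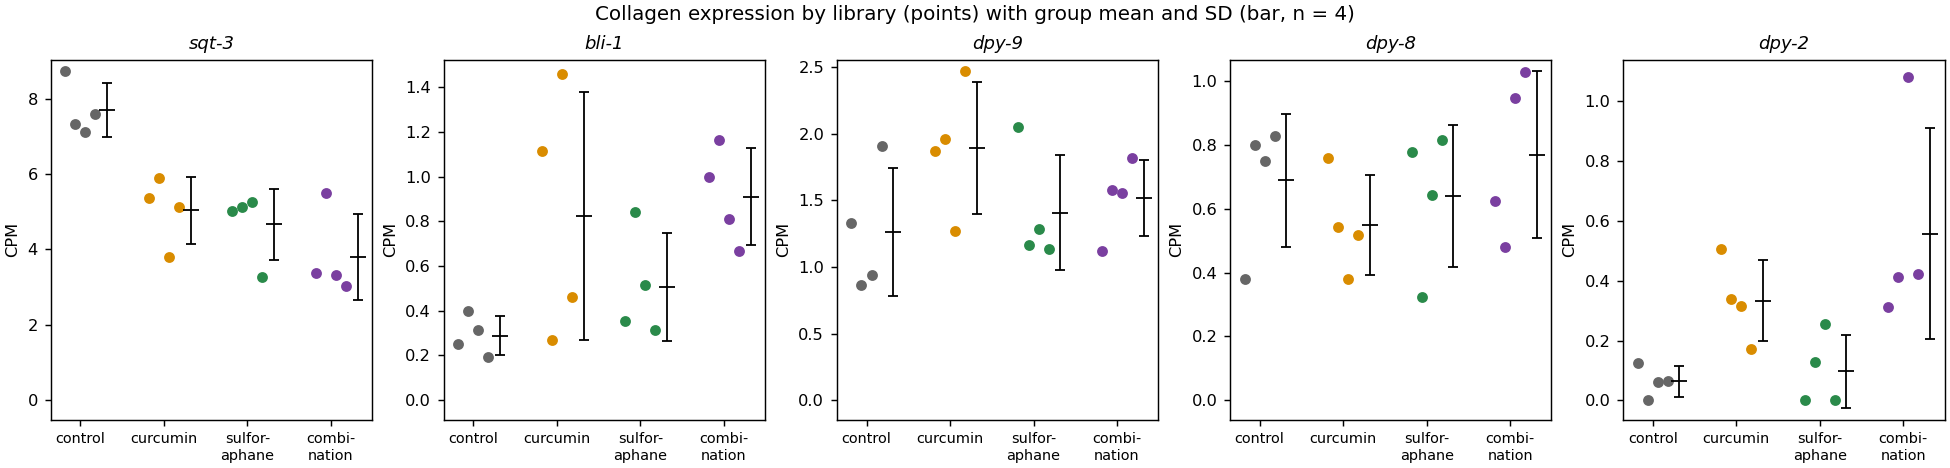
CPM of 5 collagen genes in each library (points, n = 4 per group) with the group mean and SD beside them. For *sqt-3* all 12 treated libraries lie below the lowest control of 7.12 CPM, and for *dpy-2* the combination libraries lie above all control libraries.

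*bli-1*, the strut collagen gene, moved in the opposite direction. It spans 10708960 to 10712156 on the plus strand of chromosome II and has 5 exons. The control libraries held 4, 6, 5 and 3 reads, or 0.253, 0.400, 0.312 and 0.191 CPM. With curcumin they held 22, 4, 23 and 8 reads, or 1.11, 0.271, 1.46 and 0.460 CPM. The sulforaphane libraries had 0.354, 0.844, 0.514 and 0.314 CPM, and the combination libraries 0.998, 1.17, 0.813 and 0.666 CPM. The combination lay above all controls, whereas curcumin split into 2 high libraries and 2 near or within the control range.

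Mean *bli-1* expression was 0.289 ± 0.0888 CPM (SD, n = 4) in control worms and 0.911 ± 0.218 after the combination. The log2 change was 1.63 (SE 0.50) with an adjusted p of 0.0195 in edgeR and an exact two-sided permutation p of 0.0286 (0.143 adjusted over the 30 tests). Under curcumin the mean was 0.825 ± 0.555 CPM (SD, n = 4), and the log2 change was 1.51 (SE 0.50, adjusted p = 0.0454 in edgeR). Here the libraries overlapped the control and the exact two-sided permutation p was 0.0857. Under sulforaphane the mean was 0.506 ± 0.241 CPM (SD, n = 4), and the log2 change of 0.80 was not called (SE 0.54, adjusted p = 0.479 in edgeR). *bli-1* passed the filter on low counts through 4 combination, 2 curcumin and 1 sulforaphane library and no control library, so a gene admitted in this way had to be higher with treatment. The curcumin call was lost when any control replicate, curcumin replicate 1 or 3, sulforaphane replicate 3 or combination replicate 1 was left out, with edgeR adjusted p-values of 0.0515 to 0.189, and also over all genes with at least 1 read (0.0545), with only the groups compared (0.0805) and on FPKM. The combination call was lost without control replicate 4 (edgeR adjusted p = 0.063) or combination replicate 2 (0.0552), and on FPKM.

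*bli-1* lies close to a far more abundant gene. On the same strand, *col-80*, another cuticle collagen gene, ends 672 bases before *bli-1* and had 44233 reads against 162. *col-80* had a control mean of 62.8 ± 13.4 CPM (SD, n = 4) and rose to 229 ± 16.9 under curcumin, 151 ± 26.8 under sulforaphane and 252 ± 36.2 under both (edgeR adjusted p = 1.14e-10, 3.01e-07 and 1.7e-11). Per 1000 *col-80* reads there were 4.93 ± 2.53 *bli-1* reads in control libraries (SD, n = 4), 3.71 ± 2.66 under curcumin, 3.34 ± 1.37 under sulforaphane and 3.67 ± 1.05 under both. The part of *col-80* transcripts in the *bli-1* reads was not tested. *bli-1* also lies wholly inside *dph-2* on the other strand, a gene at 9.76 ± 0.489 CPM (SD, n = 4) in control worms and 9.10 ± 1.23 after the combination that was not called in any group.

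**Figure D3:**
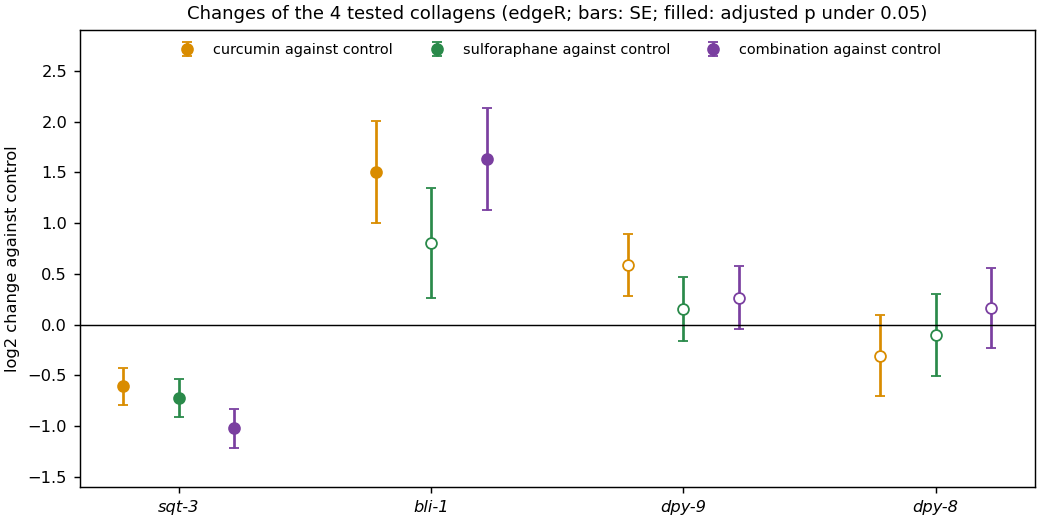
Log2 changes against control of the 4 tested collagen genes with their SE (edgeR, n = 4 per group). Filled points passed an adjusted p of 0.05: *sqt-3* lies below 0 in all 3 comparisons, *bli-1* is called above 0 for curcumin and the combination, and *dpy-9* and *dpy-8* are not called. *bli-1* passed the filter on low counts only through treated libraries, so its calls are a description and not support for a change.

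Among the furrow collagens, *dpy-9* and *dpy-8* were the 2 with enough reads to test, and neither was called in any comparison. For these 2 genes edgeR gave 0 calls, 0 unadjusted p-values under 0.05 in all 7 contrasts, and DESeq2 also gave 0 calls. The shares of all tested genes called against control were 14.6%, 6.71% and 23.1% for curcumin, sulforaphane and the combination. With 2 genes, 0 calls cannot be told from these shares. *dpy-9* lies on chromosome IV from 257403 to 259204 on the minus strand and has 2 transcripts of 4 exons. Its control libraries held 1.33, 0.866, 0.936 and 1.91 CPM. The curcumin libraries held 1.87, 1.97, 1.27 and 2.47 CPM, the sulforaphane libraries 2.05, 1.17, 1.28 and 1.13 CPM, and the combination libraries 1.12, 1.58, 1.56 and 1.82 CPM. All 4 groups overlapped. The log2 change was 0.59 with curcumin (95% interval -0.01 to 1.18, edgeR adjusted p = 0.249), 0.15 with sulforaphane (-0.47 to 0.77, 0.861) and 0.27 with the combination (-0.35 to 0.88, 0.611).

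*dpy-8* lies on chromosome X from 5148804 to 5150476 on the minus strand and has 4 exons. The control libraries held 0.379, 0.800, 0.749 and 0.83 CPM. Curcumin libraries held 0.759, 0.542, 0.380 and 0.517 CPM, those of sulforaphane 0.778, 0.324, 0.642 and 0.817 CPM, and those of the combination 0.624, 0.480, 0.948 and 1.03 CPM. Again all groups overlapped. The log2 changes were -0.31 with curcumin (95% interval -1.09 to 0.48), -0.10 with sulforaphane (-0.89 to 0.68) and 0.16 with the combination (-0.60 to 0.93), with edgeR adjusted p-values of 0.73, 0.924 and 0.814. At 5 to 17 reads per library these intervals do not exclude a change of nearly 2-fold, or for curcumin a fall of slightly more than 2-fold. *dpy-8* overlaps C31H2.14 on the other strand by 91 bases, a gene with 769 reads that was itself not called, and the counting is not stated to use strand.

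*dpy-2* was the furrow collagen gene with the clearest separation of groups, at very low counts. It lies on chromosome II from 6714292 to 6715971 on the plus strand, with 5 exons. The control libraries held 2, 0, 1 and 1 reads and the sulforaphane libraries 0, 2, 4 and 0. Curcumin libraries held 10, 5, 5 and 3 reads, and combination libraries 5, 6, 16 and 7. Each library with curcumin, alone or in the combination, had a higher *dpy-2* CPM than any control library, while sulforaphane and control overlapped.

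Over the summed reads of each group, scaled to depth, *dpy-2* was 5.31 times the control with curcumin (95% exact interval 1.81 to 21.1), 1.54 times with sulforaphane (0.364 to 7.41) and 8.59 times with the combination (3.06 to 33.3). Counting error alone enters these intervals, because reads were summed over the libraries of a group, which leaves out the spread between libraries. Molecular identifiers were also not available. The exact two-sided permutation p over libraries was 0.0286 for curcumin, 0.629 for sulforaphane and 0.0286 for the combination, and 0.143 for curcumin and for the combination after adjustment over the 30 tests. *dpy-2* was below the filter on low counts. In a fit over all 25386 genes with at least 1 read, where 8.58%, 4.81% and 13.5% of genes were called for curcumin, sulforaphane and the combination, its log2 change was 2.28 for curcumin (SE 0.91, adjusted p = 0.113 in edgeR) and 2.97 for the combination (SE 0.88, adjusted p = 0.00769 in edgeR). In the same fit the combination also exceeded sulforaphane, by a log2 difference of 2.38 (SE 0.83, edgeR adjusted p = 0.0414). Combination replicate 3 held 16 of the 34 combination reads, and without it both calls were lost (edgeR adjusted p = 0.102 and 0.297).

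The divergent neighbour *dpy-10*, on the minus strand of chromosome II from 6710149 to 6712227, had 0 control reads, 3 under curcumin, 1 under sulforaphane and 3 under both. The 3 combination reads were all in replicate 2. *dpy-7*, on chromosome X from 7536467 to 7537792, had 1, 2, 1 and 3 reads in the control, curcumin, sulforaphane and combination groups, and those of the combination were likewise all in replicate 2. *dpy-3*, on chromosome X from 2144605 to 2145647, had 1 read with sulforaphane and 1 with the combination. At this depth no difference between groups was detectable for these 3 furrow collagen genes.

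*dpy-13* lies on chromosome IV from 4235614 to 4236710 and had 0, 6, 3 and 1 reads in the control libraries. It had 4, 0, 6 and 4 reads with curcumin, 3, 1, 1 and 2 with sulforaphane, and 1, 4, 1 and 0 with the combination. All groups overlapped. The summed ratio to control was 1.29 with curcumin (95% exact interval 0.534 to 3.25), 0.717 with sulforaphane (0.232 to 2.09) and 0.606 with the combination (0.181 to 1.84). These intervals also leave out the spread between libraries. *rol-6*, on chromosome II from 8733050 to 8734239, had 2 control reads, 3 under curcumin, 0 under sulforaphane and 2 under both, and in each group with reads they came from a single library. The 0 reads of sulforaphane allow a level of up to 0.0492 CPM over that group.

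The treated groups were also compared with one another. The combination held each compound at its single dose, whereas curcumin at 5 mg/mL and sulforaphane at 0.625 mg/mL differed in dose. None of the 4 tested collagens was called between curcumin and sulforaphane, between the combination and either compound, or for the interaction, which asks whether the log2 change of the combination differs from the sum of the separate changes. Both edgeR and DESeq2 gave 0 calls in these 4 contrasts, against 18.1%, 7.32%, 18.8% and 0.991% of all tested genes for curcumin against sulforaphane, the combination against curcumin, the combination against sulforaphane and the interaction. At an unadjusted p under 0.05 there was 1, *sqt-3* in the combination against curcumin. For *sqt-3* the log2 difference was 0.11 between curcumin and sulforaphane (95% interval -0.26 to 0.49), -0.41 between the combination and curcumin (-0.80 to -0.03, edgeR adjusted p = 0.255) and -0.30 between the combination and sulforaphane (-0.69 to 0.09, edgeR adjusted p = 0.345). Without combination replicate 2, whose 5.49 CPM overlapped the single treatments, the difference from curcumin was -0.64 (edgeR adjusted p = 0.0435). The interaction was 0.31 for *sqt-3* (95% interval -0.22 to 0.83) and -0.68 for *bli-1* (-2.02 to 0.67).

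Other named cuticle collagens also had few reads. Of 12 listed, 11 were found in the table by name and only *dpy-17* and *sqt-2* had enough reads to test, and neither was called in any comparison. *sqt-1*, whose collagen works with ROL-6, had 5 reads over all libraries, *bli-2* 7, *rol-1* 8, *dpy-14* 26, *rol-8* 30, *bli-6* 51, *dpy-5* 82, and *dpy-4* and *lon-3* 100 each.

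Some genes that fold, modify and cross-link collagen rose. Of 15 tested, 6 rose and 0 fell with curcumin, 2 rose and 0 fell with sulforaphane, and 6 rose and 0 fell with the combination, with median log2 changes of 0.18, 0.06 and 0.18. Over all tested genes, 6.87%, 4.33% and 12.1% were called higher. DESeq2 called 6, 4 and 6 genes of this list. *mlt-7* had negative log2 changes of -0.18, -0.21 and -0.19 that were not called (edgeR adjusted p = 0.12, 0.101 and 0.0608). *phy-2* and *dpy-18* encode prolyl 4-hydroxylase subunits, which harden the collagen helix. *phy-2* rose from 39.4 ± 2.09 CPM in the control to 51.8 ± 1.39, 46.8 ± 1.53 and 59.3 ± 4.39 with curcumin, sulforaphane and the combination (SD, n = 4; edgeR adjusted p = 0.000112, 0.0241 and 2.05e-07). *dpy-18* rose from 48.8 ± 1.3 to 62.3 ± 5.86 CPM under curcumin and 70.2 ± 6.8 under both (SD, n = 4; edgeR adjusted p = 0.00159 and 7.6e-06), and was 57.1 ± 2.47 CPM with sulforaphane (not called, 0.0822).

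*fkb-5*, a prolyl isomerase gene of the secretory pathway, rose by a log2 change of 0.32 with curcumin and 0.64 with the combination (edgeR adjusted p = 0.0284 and 1.81e-05). *doxa-1* encodes a maturation factor for the dual oxidase BLI-3 that cross-links cuticle proteins, and it rose by 0.33 and 0.51 (edgeR adjusted p = 0.0383 and 0.000707). The second gene called by edgeR for sulforaphane beside *phy-2* was *pdi-2*, the other subunit of the hydroxylase. It was named after its values were seen (log2 change 0.33, edgeR adjusted p = 0.00622).

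Molting genes, cuticlins and regulators were counted in the same way. Of 10 tested molting genes, 1 rose and 1 fell with curcumin and 4 rose and 1 fell with the combination. For sulforaphane edgeR and DESeq2 called 0 of them, and 2 (*mlt-11* and *noah-2*) had an unadjusted p under 0.05. Over all tested genes, 14.6%, 6.71% and 23.1% were called with curcumin, sulforaphane and the combination, so the curcumin count lies near that share. *mlt-11*, a protease inhibitor gene needed for molting, rose from 1.51 ± 0.454 to 3.06 ± 0.144 CPM with the combination (SD, n = 4; edgeR adjusted p = 0.00257). *nas-37*, an astacin protease gene that opens the old cuticle, fell from 31.5 ± 2.4 to 23.02 ± 1.98 CPM under curcumin and 21.8 ± 3.08 under both (SD, n = 4; edgeR adjusted p = 0.00146 and 0.000183). *noah-2* and *ptr-4*, with *noah-1* outside the naming rule, also rose with the combination (log2 changes of 0.66, 0.58 and 0.30, edgeR adjusted p = 0.0158, 0.0296 and 0.0186). Of 3 tested cuticlin genes, *cut-6* rose in every treated group, from 10.9 ± 0.705 CPM to 15.5 ± 1.48, 16.4 ± 0.812 and 20.1 ± 1.97 (SD, n = 4; edgeR adjusted p = 0.00076, 0.000323 and 1.61e-07), and *cut-5* rose with the combination (log2 change 1.53, edgeR adjusted p = 0.022).

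Of 9 transcription factors of the epidermis and the molting cycle, *blmp-1* was called alone against control, with log2 changes of 0.61 for curcumin and 0.72 for the combination (edgeR adjusted p = 1.09e-05 and 5.86e-07) and 0.23 for sulforaphane (not called, 0.13). *nhr-23*, a nuclear receptor that drives molting, had log2 changes of 0.04, 0.02 and 0.03. In the BMP pathway, which controls body size and collagen genes, 0 of 9 rose against control, and 1, 2 and 3 fell with curcumin, sulforaphane and the combination. Over all tested genes, 14.6%, 6.71% and 23.1% were called in either direction, and 7.71%, 2.37% and 11% were called lower. *sma-9*, a transcription cofactor of this pathway, fell by 0.28, 0.19 and 0.36 on the log2 scale (edgeR adjusted p = 0.000988, 0.0477 and 3.5e-05). *sma-10*, a cell surface regulator, fell by 0.38 with sulforaphane and by 0.38 with the combination (edgeR adjusted p = 0.00214 and 0.000669), and the SMAD gene *sma-4* fell by 0.40 with the combination (5.9e-05).

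Some of the genes known to respond when furrow collagens are lost rose in each treated group. Of 6 such genes, curcumin raised 3, sulforaphane 4 and the combination 6, and 0 fell. Their median log2 changes were 0.62, 0.42 and 1.12. Over all tested genes, 6.87%, 4.33% and 12.1% were called higher in these comparisons. *gst-4* and *gcs-1* were listed with their changes in these libraries already known, and both are among the 4 called with sulforaphane. The counts and medians of this list are therefore a description and not support for a change. The 2 tested furrow collagens, *dpy-9* and *dpy-8*, were not called, and a link between this list and furrow collagen levels was not tested. *hmit-1.1*, an inositol transporter gene of the osmotic response, rose from 15.0 ± 1.56 CPM to 56.5 ± 5.13, 44.7 ± 6.03 and 80.2 ± 8.22 with curcumin, sulforaphane and the combination (SD, n = 4; edgeR adjusted p = 6.24e-13, 8.33e-11 and 3.79e-15). Its interaction was -1.07 (edgeR adjusted p = 0.000127), below the sum of the separate log2 changes.

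*gpdh-1*, which makes glycerol as an osmolyte, rose from 12.1 ± 2.43 to 21.9 ± 5.72, 19.1 ± 1.49 and 49.6 ± 7.62 CPM (SD, n = 4; edgeR adjusted p = 0.000378, 0.0113 and 2.15e-10). The glutathione transferase gene *gst-4* rose by 0.52 with sulforaphane and 1.08 with the combination on the log2 scale (edgeR adjusted p = 0.0086 and 1.83e-07). The antimicrobial peptide gene *nlp-31* rose from 3.41 ± 1.21 to 7.56 ± 2.02 CPM with the combination (SD, n = 4; edgeR adjusted p = 0.000702). Outside the naming rule, *nlp-29*, another such peptide gene, rose with curcumin and the combination (log2 changes of 0.67 and 0.99, edgeR adjusted p = 0.0432 and 0.00138), and *gcs-1*, which starts glutathione synthesis, rose with sulforaphane and the combination (0.31 and 0.27, 0.00402 and 0.00457).

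**Figure D4:**
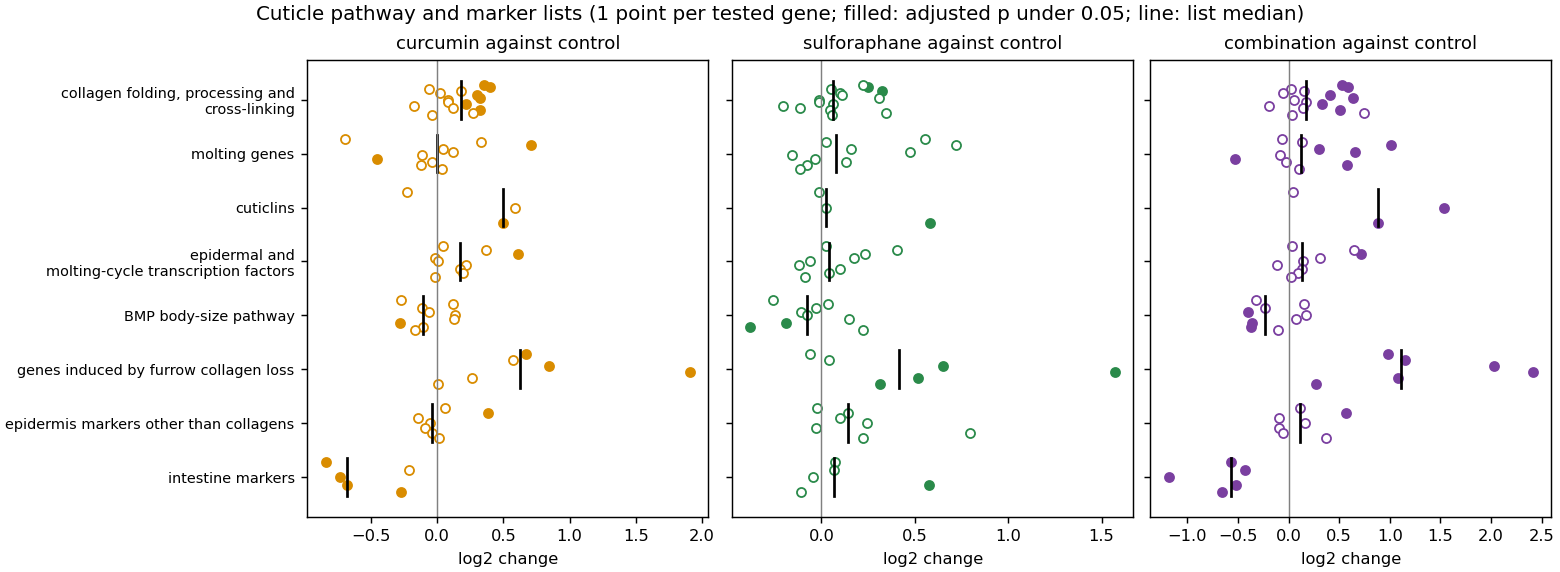
Log2 changes against control of the tested genes in 8 lists (1 point per gene, black line at the list median, filled where the edgeR adjusted p was under 0.05). The genes induced by furrow collagen loss lie furthest to the right with the combination, with a median of 1.12. That list includes *gst-4* and *gcs-1*, which were listed with their changes already known. The intestine markers have medians of -0.68 with curcumin and -0.57 with the combination.

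Against control, 14.6%, 6.71% and 23.1% of all tested genes were called for curcumin, sulforaphane and the combination. Markers of the cell types in a whole worm moved as follows. Of 7 tested epidermis markers other than collagens, *mup-4*, an anchoring protein gene, was called alone against control, rising from 310 ± 12.8 to 404 ± 29.2 CPM under curcumin and 459 ± 24.6 under both (SD, n = 4; edgeR adjusted p = 7.27e-05 and 1.32e-07). The summed level of the 8 epidermis markers was 1190 to 1265 CPM in control worms, 1125 to 1321 under curcumin, 1268 to 1390 under sulforaphane and 1269 to 1417 under both. Of 5 intestine markers, 4 fell with curcumin and 5 with the combination, while 1 rose with sulforaphane, and their summed level was 976 to 1145, 715 to 801, 1118 to 1304 and 655 to 726 CPM in the 4 groups in the same order. Of 5 body-wall muscle markers, 2 rose with curcumin and 5 with the combination, with summed levels of 1591 to 1852, 1745 to 2294, 1538 to 1918 and 1868 to 2605 CPM. *snb-1*, a synaptic vesicle gene, was the neuron marker of 5 that rose with the combination, *let-2* was the basement membrane collagen of 3 that did, and 0 of 4 pharynx and 0 of 6 germline markers were called against control (edgeR; DESeq2 also 0; at an unadjusted p under 0.05, *glh-1* with the combination). No marker in these lists was at 0 in every library. The germline markers summed to 216 to 338 CPM over all libraries. The part of these shifts in the collagen results was not tested.

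The 4 tested collagens did not follow one pattern over the 16 libraries. Their pairwise Pearson correlations of log2 CPM ranged from -0.54 between *sqt-3* and *bli-1* to 0.10 between *dpy-8* and *dpy-9*. Among 9215 genes with a mean of at least 5 CPM, the closest to *sqt-3* was Y20F4.4 (r = 0.934, Spearman 0.897, and 0.909 without the 2 libraries farthest from the median), with 9.98, 8.496, 8.30 and 7.46 CPM in the control, curcumin, sulforaphane and combination groups. The closest to *bli-1* was *tmed-10* (r = 0.885, Spearman 0.85, 0.85 without 2 libraries), to *dpy-9* F56D2.2 (0.823, 0.806, 0.807) and to *dpy-8* *fbxa-90* (0.751, 0.771, 0.688). The highest mean correlation with all 4 was 0.265 for C34B2.8, followed by E04F6.9 (0.258), C25G4.2 (0.256), *nuaf-3* (0.246) and *mpc-2* (0.244). These are the highest of many genes searched and carry no test.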

How the data were processed

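Whole-worm polyA RNA of 16 libraries was analysed from the authors' deposited raw read counts per gene, and levels between genes were compared with the FPKM values deposited by the authors. The submitters' processing notes name HISAT2 2.0.5, StringTie 1.3.3b, featureCounts 1.5.0-p3, DESeq2 1.20.0 and the build WBcel235, with no role or order; the handling of reads that match several genes and of strand is not given in the sources used here. Library columns were matched to samples by the library names in the labels. Coordinates are 1-based as deposited and equalled Ensembl release 115 for all 10 genes.

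Counts were tested in edgeR 4.0.16 (R 4.3.3) by a quasi-likelihood F test with TMM scaling. Genes were kept by filterByExpr (minimum count 10, minimum total 15), which left 14328 genes, and 1 mean per group was fitted to all 16 libraries. P-values were two-sided and adjusted by the Benjamini-Hochberg method over all tested genes, with calls at 0.05. The SE is the log2 change divided by the square root of F, and 95% intervals of log2 changes are normal intervals from it. Exact two-sided permutation tests (30 against control) compared CPM means. Ratios of summed reads have exact binomial intervals, which leave out the spread between libraries, and levels allowed by 0 reads use 3 counts over a group. The p-values measure the spread between replicates labelled as independent.

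Members and gene lists were chosen with earlier results of these data known. From each list the called genes with the largest change, at most 4, were named, and genes of like pattern were sought above a mean of 5 CPM. Of 115 listed genes, 114 were in the table by name. The collagen family, *col-80*, *col-153* and the ratios of summed reads were chosen after values were seen. Fits were tested on simulated counts. Alternatives were other scalings, filters, DESeq2 1.42.0, limma 3.58.1 on log2 FPKM with a pseudocount of 1 or 0.1, fewer groups, a replicate block and leaving out each library.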

Additional observations from a re-analysis of the deposited data

Results flagged for a closer look

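Within groups of 4 libraries, a single library stood apart from the other 3 by more than Dixon's 95% critical share of the group's range in 15 of the 36 gene and group pairs that had reads. Chance flags about 1 in 20 such groups, and a gene with reads in 1 library is flagged by that alone. Among genes with more reads, *sqt-3* was at 3.27 CPM in sulforaphane replicate 4, below the other sulforaphane libraries, and at 5.49 CPM in combination replicate 2, above the other combination libraries. *dpy-9* was at 2.05 CPM in sulforaphane replicate 1, and *dpy-2* at 1.08 CPM in combination replicate 3. The others had at most 3 reads in a library: *dpy-3* (0.0649 CPM in a sulforaphane and 0.0605 in a combination library), *dpy-7* (0.0632 in control, 0.101 in curcumin, 0.0642 in sulforaphane and 0.206 in combination), *dpy-10* (0.0707 in sulforaphane and 0.206 in combination) and *rol-6* (0.125 in control, 0.203 in curcumin and 0.121 in combination). Combination replicate 2 was the highest of its group for *sqt-3*, *dpy-7*, *dpy-10*, *dpy-13* and *bli-1*, and the result for *sqt-3* without it is given above.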

How the results depend on the processing

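Of 682 log2 changes of the 4 tested collagens under alternatives, 650 kept their direction and their side of the threshold, 21 lost a call, 1 gained one and 10 changed sign, none of them called. The count of called collagens with curcumin was 1 in place of 2 over genes with at least 1 read, when each sample needed 10 counts, with only the groups compared, on FPKM with a pseudocount of 1 and with an added 2-fold condition. It was 0 on FPKM with a pseudocount of 0.1 and 0 to 2 when a library was left out. With sulforaphane it was 0 in place of 1 under the 2-fold condition and 0 to 1 with a library left out. With the combination it was 1 in place of 2 when each sample needed 10 counts and under both FPKM pseudocounts, and 1 to 2 with a library left out. It was 3 over genes with at least 1 read, where *dpy-2* was added. For the combination against curcumin it was 0 to 1 with a library left out. For the combination against sulforaphane it was 1 over genes with at least 1 read, which was *dpy-2*. *bli-1* could not be tested when each sample needed 10 counts. On FPKM its log2 change was 0.21 for curcumin and 0.25 for the combination with a pseudocount of 1, a scale that understates changes of low genes. *bli-1* was also not called with a pseudocount of 0.1 in either comparison. The cause of the lost calls was not tested.

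The sign changes all came from leaving out 1 library. Left-out values ranged from -0.31 to 0.11 for *dpy-8* with sulforaphane (0.0018 without control replicate 4), from -0.036 to 0.33 for *dpy-8* with the combination (-0.01 without combination replicate 4), from -0.079 to 0.43 for *dpy-9* with sulforaphane and from -0.0011 to 0.34 for *dpy-9* between the combination and sulforaphane. They ranged from -0.032 to 0.22 for *sqt-3* between curcumin and sulforaphane and from -0.16 to 0.51 for *bli-1* between the combination and curcumin (-0.092 and -0.013 in the other reversals). Libraries of the same replicate number had a mean correlation of residuals of 0.109 over 24 pairs (0.00708 to 0.21). Over 72 pairs of other numbers it was -0.0364 (-0.187 to 0.178). Libraries sharing a number were thus slightly more alike on average, but the ranges overlapped and each library enters several pairs. What they shared was not tested. The main fit did not use the replicate number. With the replicate block the counts stayed at 2, 1 and 2 against control, and the *sqt-3* log2 changes were -0.61, -0.73 and -1.04.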
